A study of Mus musculus with 6 samples.

Results

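Enzymes that clear aldehydes and other reactive carbonyls were followed in primary mouse embryonic fibroblasts (MEFs) under erastin, through 10 genes chosen by name: Cbr1, Cbr3, Akr1a1, Akr1b3, Akr1b8, Esd, Ephx1, Aldh2, Aldh9a1 and Aldh3a2. Each symbol matched a single row among the 43346 genes of the deposited count table, and all 10 were among the 14000 genes with enough reads to be tested. MEFs are fibroblasts grown from mouse embryos, and these were of the C57BL/6 strain at passage 9. The treated group received 3 µM erastin for 24 h and the control group received the solvent DMSO, with 3 libraries each. Erastin is a small molecule that blocks cystine uptake by the cystine/glutamate antiporter and is used to induce ferroptosis. Both groups were grown in medium with fetal bovine serum, nonessential amino acids, antibiotics and 2-mercaptoethanol, a thiol reductant. The labels give the experiment as a triplicate and do not say whether the replicates came from separate embryos or MEF preparations, so the p-values measure the spread between these libraries.

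In ferroptosis, iron feeds the peroxidation of membrane lipids until the cell dies. Lipid hydroperoxides break down into reactive aldehydes such as hydroxynonenal and malondialdehyde, which attach to proteins and DNA. Cells remove such carbonyls by reducing them to alcohols with NADPH (carbonyl reductases and aldo-keto reductases). They also oxidise them to carboxylic acids with NAD+ or NADP+ (aldehyde dehydrogenases), or act by way of glutathione, as for formaldehyde. Epoxide hydrolases, such as the product of Ephx1, add water to epoxides, which are reactive but are not carbonyls.

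Total counts were 13333911 to 18505571 in the DMSO and 16800789 to 20509970 in the erastin libraries, and Pearson's r of log2 expression across genes ran from 0.965 to 0.983 for libraries of a group and from 0.924 to 0.938 across groups. Levels are given as CPM, the usual scaling of read counts by library size. All 10 fibroblast markers examined were expressed, at summed levels of 28537 to 29724 CPM with DMSO and 16766.5 to 18732 CPM with erastin. Of the 10, 8 were lower with erastin (passing at 0.05 after adjustment in edgeR's quasi-likelihood test), against 21.5% of all 14000 genes tested. The 6 hepatocyte markers, of a cell type rich in these enzymes, summed to 0 CPM with DMSO and 0 to 0.359 CPM with erastin, with Afp, Cyp2e1 and Serpina1a at 0 throughout. The 5 endothelial markers summed to 5.10 to 7.71 CPM with DMSO and 14.1 to 17.4 CPM with erastin; of these Kdr and Tek rose, while Pecam1 and Cdh5 averaged 0.0948 to 0.372 CPM. Summed markers of epithelium (6 genes, 2.14 to 3.25 CPM), macrophages (6 genes, 9.49 to 18.0 CPM) and adipocytes (5 genes, 1.92 to 6.65 CPM) overlapped between the groups, and those of neurons (5 genes) ran from 16.2 to 21.6 CPM with DMSO and from 10.9 to 14.1 CPM with erastin, mostly from Stmn2. The part of the marker differences in the results that follow was not tested. In bulk RNA, fewer cells of a type and less RNA per cell cannot be told apart.

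Of these genes some were higher with erastin, some were lower and others did not pass. Esd, which acts in glutathione-dependent formaldehyde clearance, rose to 2.03 times its DMSO level, and the fatty aldehyde dehydrogenase gene Aldh3a2 rose 1.52-fold. Akr1a1, Ephx1 and Aldh2, all abundant in DMSO libraries, fell to 0.775, 0.805 and 0.792 times their DMSO levels. Cbr1, Cbr3, Akr1b3, Akr1b8 and Aldh9a1 did not pass the test. Thus 5 of the 10 genes passed the edgeR quasi-likelihood test at the adjusted threshold of 0.05, 2 higher and 3 lower. Among all 14000 genes tested 43.1% passed, 21.6% as higher and 21.5% as lower, so the 50% of these genes that passed was close to the share among all genes. The groups did not overlap for 6 of the 10 genes, against 52.5% of all genes tested. The median log2 fold change was -0.24 over the 10 genes and -0.0014 over all genes tested.

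**Figure D1:**
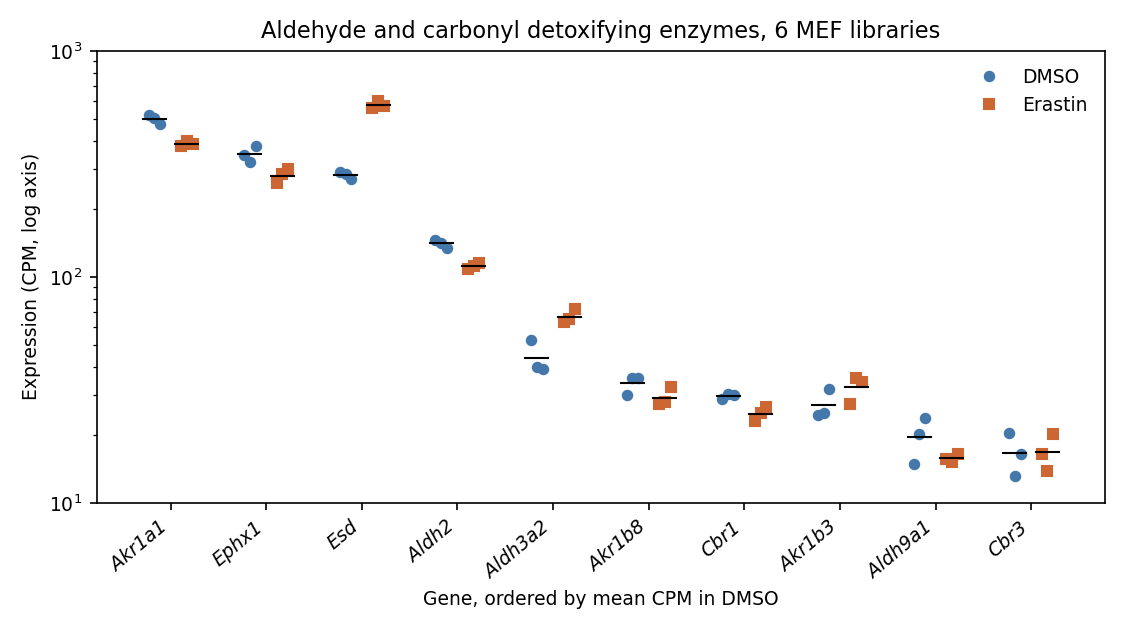
Expression of the 10 enzyme genes in each of the 6 libraries, in CPM on a log axis, with DMSO as circles, erastin as squares and group means as black lines. Esd moved from 271 to 292 CPM in DMSO to 555 to 596 CPM in erastin libraries, while Akr1a1, Ephx1 and Aldh2 lay lower in all 3 erastin libraries than in any DMSO library.

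Esd encodes esterase D, the S-formylglutathione hydrolase that completes the glutathione-dependent oxidation of formaldehyde and returns free glutathione. The gene (ENSMUSG00000021996.12) lies on the plus strand of chromosome 14 from 74732297 to 74750765 in GENCODE M21 (GRCm38, which is mm10). Esd stood at 292, 284 and 271 CPM in DMSO replicates 1, 2 and 3 and at 555, 596 and 567 CPM in erastin replicates 1, 2 and 3. The groups were far apart: every erastin library lay far above every DMSO library, and replicates within a group differed little. The log2 fold change was 1.02 (SE 0.067, 95% interval 0.88 to 1.17, edgeR adjusted p = 3.087e-08), which put Esd at rank 137 of the 14000 genes by p-value. Esd was the 1 gene of the 10 whose log2 fold change exceeded 1 in size, a size that 12.2% of all genes reached while passing.

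Esd has processed pseudogenes of nearly the same sequence, and how reads were shared between them by the counting is not stated. In the GENCODE M21 transcripts, 9 pseudogenes matched the longest Esd transcript at 96.5% to 97.0% identity, of which 7 had rows in the table. Together they held 976 reads against 45307 for Esd itself, and their reads came to 1.52% to 2.59% of the Esd reads with DMSO and 1.93% to 2.44% with erastin. The most counted copy, Esd-ps, chosen after its values were seen, had mean levels of 4.64 and 10.3 CPM without and with erastin (log2 fold change 1.16, edgeR adjusted p = 0.00204). With the copies added to Esd its log2 fold change was 1.02 again (edgeR adjusted p = 2.761e-08). The copies held too few reads to move this value much, so the sum does not show how reads were shared.

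The 250 bases before the RefSeq start site (GRCm38.p6) are printed for Esd, the gene with the largest change, and for Aldh9a1, the gene of the 10 whose window held a match to the antioxidant response element. Capitals mark motif matches on either strand. The Esd window is chr14:74732047-74732296 and the Aldh9a1 window is chr1:167349741-167349990, both on the plus strand.
Esd: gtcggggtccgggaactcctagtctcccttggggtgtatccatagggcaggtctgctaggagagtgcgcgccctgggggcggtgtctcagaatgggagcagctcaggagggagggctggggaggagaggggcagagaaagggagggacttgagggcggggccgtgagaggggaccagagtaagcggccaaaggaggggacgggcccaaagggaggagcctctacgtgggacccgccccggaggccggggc
Aldh9a1: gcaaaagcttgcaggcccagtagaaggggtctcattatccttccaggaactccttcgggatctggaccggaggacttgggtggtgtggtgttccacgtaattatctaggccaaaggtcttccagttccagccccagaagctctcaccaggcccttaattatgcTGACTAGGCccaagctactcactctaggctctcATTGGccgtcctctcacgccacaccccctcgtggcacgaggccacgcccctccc
Motifs searched were TGACNNNGC, the core of the antioxidant response element bound by NRF2, TGATGNAA, the core of the composite element bound by ATF4 with C/EBP proteins, TGANTCA, the AP-1 element, and the CCAAT box. TGACNNNGC and TGANTCA can overlap in a single site. RefSeq windows were at hand for 8 of the 10 genes, all but Akr1b3 and Aldh2. Esd had no match to any of the motifs, and its window was 68.4% G and C. Aldh9a1 had TGACTAGGC from 87 to 79 bases before the start site and the reverse complement of a CCAAT box from 54 to 50 bases before it. Ephx1 and Aldh3a2 each had a CCAAT box, but 198 of the 250 bases of the Aldh3a2 window are exon in GENCODE M21. The windows of Aldh3a2, Cbr1 and Ephx1 lie inside the gene as GENCODE M21 draws it, downstream of its first annotated base. Cbr1, Cbr3, Akr1a1 and Akr1b8 had no match. Of all 32851 promoter windows of this length, 10.2% held TGACNNNGC, 3.45% TGATGNAA, 6.75% TGANTCA and 33.9% CCAAT (in 250 bases, both strands). A match is a run of letters only, and its absence from 250 bases says nothing of more distant sequence.

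Aldh3a2 encodes fatty aldehyde dehydrogenase, a membrane enzyme of the endoplasmic reticulum and peroxisomes that oxidises long-chain aliphatic aldehydes, including those released from membrane lipids. It lies on the minus strand of chromosome 11 from 61223417 to 61267464 (ENSMUSG00000010025.14). Its level was 52.7, 40.02 and 39.1 CPM in DMSO replicates 1 to 3 and 63.0, 65.2 and 71.9 CPM in erastin replicates 1 to 3. All 3 erastin libraries were above all 3 DMSO libraries, with DMSO replicate 1 the nearest to them. Aldh3a2 rose by a log2 fold change of 0.60 (SE 0.12, 95% interval 0.36 to 0.85, edgeR adjusted p = 0.0007036). The value ran from 0.53 without DMSO replicate 3 to 0.75 without DMSO replicate 1, and it passed in each of those fits.

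Aldh2 encodes the mitochondrial aldehyde dehydrogenase that oxidises acetaldehyde and also acts on hydroxynonenal. It lies on the minus strand of chromosome 5 from 121566027 to 121593824 (ENSMUSG00000029455.10). Aldh2 was at 146, 141 and 135 CPM in DMSO replicates 1 to 3 and at 108, 111 and 115 CPM in erastin replicates 1 to 3, with no overlap. It fell by 0.34 on the log2 scale with an SE of 0.076 (edgeR adjusted p = 0.002436). Of its 5126 exon bases, 130 are shared with Gm42879 on the opposite strand, a gene model not analysed here.

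Aldh9a1 encodes a cytosolic dehydrogenase of aminoaldehydes that takes part in carnitine synthesis, and it lies on the plus strand of chromosome 1 from 167349991 to 167368532 (ENSMUSG00000026687.10). It was at 14.8, 20.2 and 23.7 CPM in DMSO replicates 1 to 3 and at 15.6, 15.2 and 16.5 CPM in erastin replicates 1 to 3. DMSO replicate 1 lay below every erastin library while the other DMSO libraries lay above them, and the log2 fold change of -0.31 did not pass (SE 0.17, 95% interval -0.68 to 0.058, edgeR adjusted p = 0.1636). Without DMSO replicate 1 it was -0.47 and passed (edgeR adjusted p = 0.03159; range over all alternatives 0.03159 to 0.5017). The ratio of Aldh3a2 to Aldh2 counts, which needs no scaling between libraries, was 0.361, 0.283 and 0.290 in DMSO and 0.581, 0.586 and 0.628 in erastin libraries. Aldh3a2 RNA thus gained on Aldh2 RNA in every treated library, while protein and enzyme activity were not measured here. The CPM sum of the 3 dehydrogenase genes came to 204 ± 8.33 with DMSO and to 194 ± 8.19 with erastin (SD over 3 libraries), and the groups overlapped.

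Akr1a1 encodes aldehyde reductase, an NADPH-dependent enzyme of broad range that in mice also serves ascorbate synthesis. It lies on the minus strand of chromosome 4 from 116636510 to 116651680 (ENSMUSG00000028692.10). It had the highest CPM of the 10 genes in DMSO, at 521, 505 and 475 CPM in replicates 1 to 3, against 379.9, 397 and 386 CPM in erastin replicates 1 to 3. No library of a group reached into the other. Akr1a1 fell by 0.37 on the log2 scale (SE 0.067, 95% interval -0.51 to -0.22, edgeR adjusted p = 0.0004406).

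Akr1b3 encodes mouse aldose reductase, which turns glucose into sorbitol and reduces lipid-derived aldehydes. Akr1b8 encodes a related reductase of the same subfamily, and both genes lie on chromosome 6, Akr1b3 on the minus strand from 34302434 to 34317478 (ENSMUSG00000001642.14) and Akr1b8 on the plus strand from 34354119 to 34368463 (ENSMUSG00000029762.6). Akr1b3 was at 24.6, 24.9 and 31.8 CPM in DMSO and 27.5, 35.7 and 34.3 CPM in erastin replicates 1 to 3. The groups overlapped through DMSO replicate 3 and erastin replicate 1, and the log2 fold change of 0.26 did not pass (SE 0.14, 95% interval -0.039 to 0.56, edgeR adjusted p = 0.1516). Without DMSO replicate 3 it was 0.39 and passed (edgeR adjusted p = 0.03961; range over all alternatives 0.03961 to 0.3872). Akr1b8 ranged from 30.1 to 35.7 CPM with DMSO and from 27.3 to 32.5 CPM with erastin, with a log2 fold change of -0.21 that did not pass (SE 0.12, 95% interval -0.47 to 0.049, edgeR adjusted p = 0.1806).

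Within each library the ratio of Akr1b3 to Akr1b8 counts was 0.815, 0.700 and 0.891 in DMSO and 1.005, 1.28 and 1.05 in erastin libraries. The ratio was thus higher in all 3 erastin libraries, although neither gene passed alone; with 3 libraries a group, this single ratio was not tested. Its relatives Akr1b7 and Akr1b10 have transcripts 86.3% and 79.95% identical to that of Akr1b8, with 35 and 1418 reads over all libraries against 3181 for Akr1b8. The CPM sum of the 3 aldo-keto reductase genes came to 561 ± 17.3 with DMSO and to 449 ± 13.2 with erastin (SD over 3 libraries), of which Akr1a1 made up most.

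Cbr1 and Cbr3 encode carbonyl reductases of the short-chain dehydrogenase family; CBR1 acts on quinones, prostaglandins and lipid aldehydes. The pair are neighbours on the plus strand of chromosome 16, Cbr1 from 93605853 to 93610505 (ENSMUSG00000051483.8) and Cbr3 from 93683215 to 93690990 (ENSMUSG00000022947.7), and their longest transcripts were 77.6% identical over 830 aligned bases. Cbr1 was at 28.9, 30.4 and 30.0 CPM in DMSO and at 22.9, 25.02 and 26.4 CPM in erastin replicates 1 to 3. The groups did not overlap, yet the log2 fold change of -0.26 did not pass after adjustment (SE 0.12, 95% interval -0.52 to -0.012, edgeR adjusted p = 0.0857). With upper-quartile scaling it was -0.32 and passed (edgeR adjusted p = 0.04146; range over all alternatives 0.04146 to 0.2651). Gm5678, whose transcript is 90.9% identical to that of Cbr1, had 2 reads in all 6 libraries, against 2736 for Cbr1.

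Cbr3 was at 20.3, 13.1 and 16.5 CPM in DMSO and at 16.4, 13.9 and 20.1 CPM in erastin replicates 1 to 3, and the groups covered the same range. Its log2 fold change was 0.022 (SE 0.19, edgeR adjusted p = 0.9389) and turned to -0.032 with upper-quartile scaling, to -0.13 without DMSO replicate 2 and to -0.12 without erastin replicate 3. The 95% interval of -0.38 to 0.43 leaves room for a change of either sign.

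Ephx1 encodes microsomal epoxide hydrolase, which turns epoxides of xenobiotics and lipids into diols. It lies on the minus strand of chromosome 1 from 180976210 to 181020904 (ENSMUSG00000038776.9). Ephx1 was at 346, 321 and 379 CPM in DMSO and at 259, 284 and 298 CPM in erastin replicates 1 to 3. All treated libraries were below all controls, and Ephx1 fell by 0.31 on the log2 scale (SE 0.081, 95% interval -0.49 to -0.14, edgeR adjusted p = 0.005604). Of its exon bases 72 of 1950 are shared with Gm36961 on the same strand, a pseudogene with no reads here. Ephx1 passed in all 18 alternatives, with adjusted p-values up to 0.04643.

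**Figure D2:**
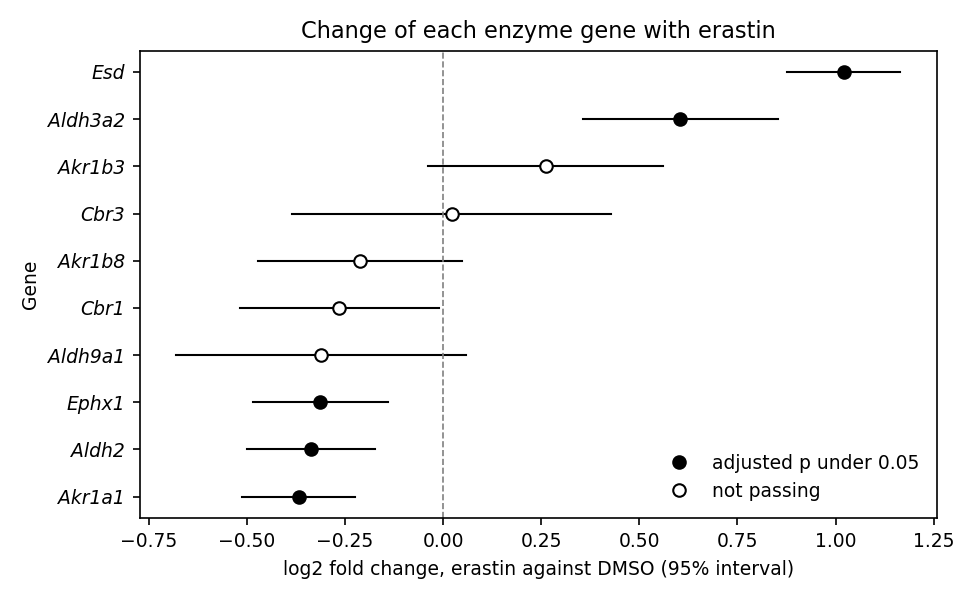
Log2 fold change of each gene, erastin against DMSO, with its 95% interval as a line; filled points passed the edgeR quasi-likelihood test at 0.05 after adjustment (3 libraries a group). Esd (1.02) and Aldh3a2 (0.60) lie to the right of 0 and Akr1a1 (-0.37), Aldh2 (-0.34) and Ephx1 (-0.31) to the left, while the open points of the other genes have smaller values or wider intervals.

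The standard errors differed between the genes. Akr1a1, Ephx1, Esd and Aldh2, each with 1729 or more reads in every library, had standard errors of 0.067 to 0.081 on the log2 scale. Of the other 6 genes, with 196 to 1387 reads a library, standard errors were 0.12 to 0.19. Aldh9a1 and Ephx1 both stood at -0.31 on the log2 scale, with standard errors of 0.17 and 0.081. With all libraries thinned to the smallest total, the standard errors of the 10 genes ran from 0.068 to 0.19, and that of Cbr3 went from 0.190 to 0.191.

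Levels were compared between genes per kilobase of merged exon (CPM per kb). In DMSO libraries Akr1a1 (182 ± 8.61) and Ephx1 (179 ± 14.9, SD, n = 3 each) were highest and did not differ beyond their spread, followed by Esd at 83.9 ± 3.15, Aldh2 at 27.4 ± 1.11 and Akr1b8 at 22.6 ± 2.13 CPM per kb. Cbr3 (13.3 ± 2.89) and Cbr1 (11.7 ± 0.290) did not differ beyond their spread in DMSO, and Aldh3a2 (7.82 ± 1.35), Aldh9a1 (5.78 ± 1.32) and Akr1b3 (3.23 ± 0.488) were lowest. In erastin libraries Esd was highest at 170.2 ± 6.29 CPM per kb, followed by Ephx1 (144 ± 10.1) and Akr1a1 (141 ± 3.14), which again lay within their spread of each other. Next came Aldh2 (21.7 ± 0.598) and Akr1b8 (19.5 ± 1.90), then Cbr3 (13.4 ± 2.50) and Aldh3a2 (11.9 ± 0.825), which did not differ beyond their spread, then Cbr1 (9.71 ± 0.697), Aldh9a1 (4.66 ± 0.194) and Akr1b3 (3.87 ± 0.524). Per kilobase of the longest transcript, Esd again ranked below Akr1a1 and Ephx1 in DMSO (142) and above both in erastin libraries (288 CPM per kb). Other places depended on the length used. Per kilobase of the longest transcript Aldh3a2 stood at 14.2 in DMSO, beside Cbr3 (14.2) and Cbr1 (13.9). In erastin libraries it stood at 21.6, beside Akr1b8 (21.5) and above Cbr3 (14.4). Akr1b3 (6.46) then lay above Aldh9a1 (5.56) in erastin libraries, the reverse of their order by merged exon. Akr1a1 and Ephx1 stood at 225 and 200 in DMSO and at 174 and 161 in erastin libraries, further apart than by merged exon.

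The change of order between Esd and Akr1a1 was the same in each library. The ratio of Esd to Akr1a1 counts was 0.560, 0.563 and 0.571 in DMSO and 1.46, 1.503 and 1.47 in erastin replicates 1 to 3. Over all 10 genes the CPM sum was 1443 ± 30.4 with DMSO and 1538 ± 54.2 with erastin (SD over 3 libraries), a ratio of 1.07 with overlapping groups, since erastin replicate 1 and DMSO replicate 1 were nearly equal (1475.9 and 1476.1 CPM). Of that sum Esd made up 19.6% ± 0.633 in DMSO and 37.3% ± 0.946 in erastin libraries, the aldo-keto reductases 38.9% ± 1.09 and 29.2% ± 0.301, and Ephx1 24.2% ± 1.97 and 18.2% ± 0.739. Smaller shares fell to the aldehyde dehydrogenases, with 14.1% ± 0.365 and 12.6% ± 0.381, and to the carbonyl reductases, with 3.21% ± 0.136 and 2.70% ± 0.249 (SD over 3 libraries, DMSO before erastin). These shares were not corrected for gene length. By CPM per kb of merged exon Esd made up 15.6% and 31.5%, the aldo-keto reductases 38.7% and 30.5%, and Ephx1 33.3% and 26.6%. The aldehyde dehydrogenases then made up 7.65% and 7.09% and the carbonyl reductases 4.64% and 4.28%. Shares add up to 100%, so a larger Esd share lowers the rest.

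**Figure D3:**
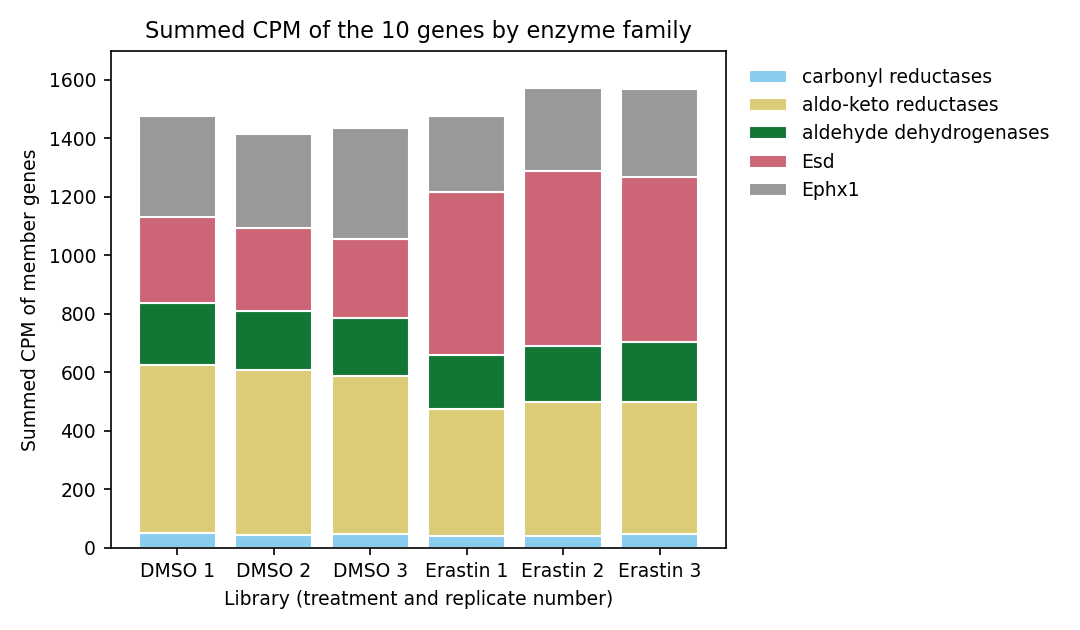
Summed CPM of the 10 genes in each library, stacked by enzyme family, with DMSO libraries left and erastin libraries right. The totals run from 1416 to 1571 CPM, and the Esd part grows from 271 to 292 CPM in DMSO to 555 to 596 CPM in erastin libraries while the aldo-keto reductase and Ephx1 parts shrink.

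The rest of each enzyme family was read from lists of genes named from general knowledge. The counts for these lists stand beside shares of 21.6% higher and 21.5% lower among all 14000 genes tested. Of 20 aldehyde dehydrogenase genes 16 were tested, and 4 were higher and 6 lower with erastin (median log2 fold change -0.31), Aldh3a2 and Aldh2 included. The mitochondrial folate enzyme gene Aldh1l2, which oxidises formyl-tetrahydrofolate, rose from a mean of 131 ± 6.05 CPM to 384 ± 14.8 CPM, by 1.55 on the log2 scale (SD over 3 libraries, edgeR adjusted p = 1.213e-09). Its cytosolic relative Aldh1l1 went down from 25.03 ± 2.32 CPM to 5.10 ± 0.751 CPM, a log2 change of -2.29 (SD over 3 libraries, edgeR adjusted p = 1.231e-07). Chosen after their values were seen, the retinaldehyde dehydrogenase gene Aldh1a3 rose (log2 fold change 1.49) and Aldh3b1, a relative of Aldh3a2, fell (log2 fold change -2.36), with edgeR adjusted p-values of 3.558e-07 and 0.0001399.

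Of 17 aldo-keto reductase genes only 7 had enough reads to be tested, and Akr1a1 was the 1 that passed; without DMSO replicate 3 Akr1b3 passed too. Of 15 short-chain carbonyl reductases and related dehydrogenases 14 were tested, with 2 higher, 4 lower and a median of -0.047; with scaling by total counts alone 4 were higher. Those higher were Rdh13 and Dhrs7, dehydrogenases with retinoid and steroid substrates, with log2 fold changes of 0.94 and 1.13 (edgeR adjusted p = 8.338e-06 and 3.457e-05). Those lower were Cbr2, Dhrs1, Dcxr and Dhrs3, with log2 fold changes of -1.48, -0.71, -0.68 and -0.49. For Cbr2 and Dhrs3 the groups overlapped. Of 5 epoxide hydrolase genes 3 were tested, and besides Ephx1 the soluble epoxide hydrolase gene Ephx2 was lower, with 6.77 ± 0.402 CPM with DMSO and 3.28 ± 1.11 CPM with erastin, a log2 change of -1.04 (SD over 3 libraries, edgeR adjusted p = 0.0121).

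Esd belongs to a list of 8 formaldehyde and methylglyoxal enzymes. All 8 were tested, and Esd and Hagh were higher while 2 were lower (median -0.13). Adh5, chosen after its values were seen, encodes the dehydrogenase that makes the substrate of esterase D. Its mean was 67.3 ± 1.67 CPM with DMSO and 61.5 ± 1.25 CPM with erastin (SD over 3 libraries), and the log2 fold change of -0.13 did not pass (edgeR adjusted p = 0.2364). The alcohol dehydrogenase gene Adh1 fell by 1.75 on the log2 scale (edgeR adjusted p = 1.523e-05). Hagh, which encodes the second glyoxalase, rose by 0.43 (edgeR adjusted p = 0.03296), but did not pass with upper-quartile scaling or without DMSO replicate 2, DMSO replicate 3, erastin replicate 1 or erastin replicate 3 (adjusted p up to 0.1494), so 1 gene was higher in those fits. Glo1, which encodes the first glyoxalase and was chosen after its values were seen, went from 44.0 ± 1.89 CPM with DMSO to 35.2 ± 4.56 CPM with erastin (SD over 3 libraries) and passed as lower, at -0.32 on the log2 scale (edgeR adjusted p = 0.03312). It did not pass with scaling by total counts alone, with no filter on low counts, or without DMSO replicate 1, 2 or 3 or erastin replicate 2 or 3 (adjusted p up to 0.1166). The count of lower genes was 1 with scaling by total counts alone, with no filter on low counts, and without DMSO replicate 1, 2 or 3 or erastin replicate 2.

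In a list of 8 enzymes that reduce or conjugate alkenals or oxidise aldehydes by other means, 3 were higher and 2 lower (median -0.031), with 1 lower under the offset for GC content and length and without DMSO replicate 2, erastin replicate 1 or erastin replicate 3. Xdh, which encodes xanthine dehydrogenase, rose from 16.6 ± 1.89 CPM to 44.0 ± 2.92 CPM and Nqo1, a quinone reductase, from 56.8 ± 3.31 CPM to 97.9 ± 10.4 CPM (SD over 3 libraries, edgeR adjusted p = 4.828e-07 and 1.224e-05). Over the 6 enzyme lists together, without the 10 genes, 46 of 63 genes were tested. Of these, 9 were higher, 14 lower and 23 did not pass, with a median log2 fold change of -0.14. Of all genes tested 43.1% passed, 21.6% as higher and 21.5% as lower, with a median of -0.0014.

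NRF2, a transcription factor that is set free from KEAP1 by electrophiles, is known to drive many carbonyl-clearing enzymes. Its target list held 22 genes besides the 10, and 17 of them were higher and 2 lower, the median log2 fold change being 0.69 (1 lower without erastin replicate 1). Among all genes tested 21.6% were higher and 21.5% lower. Nqo1, Gsta4, Gstm1 and Ptgr1 are also in the alkenal list, so the lists are not separate sets. The lowest p-values among the NRF2 targets belonged to Hmox1 and Sqstm1, whose log2 fold changes were 3.86 and 2.10 (edgeR adjusted p = 8.287e-11 and 9.24e-11). The lower targets were Tkt and G6pdx, with log2 fold changes of -1.02 and -0.36. Cbr1, Cbr3, Akr1b8 and Ephx1 are themselves described as NRF2-responsive in mouse cells, and their log2 fold changes stood at -0.26, 0.022, -0.21 and -0.31. Their 95% intervals ran from -0.52 to -0.012, from -0.38 to 0.43, from -0.47 to 0.049 and from -0.49 to -0.14. These genes were singled out from general knowledge, and the rest of the 10 were not sorted by NRF2 response. They therefore do not stand for every NRF2-responsive gene that the 10 may hold. Among that rest, Esd (1.02) and Aldh3a2 (0.60) rose, and Akr1a1 (-0.37) and Aldh2 (-0.34) fell. Akr1b3 (0.26) and Aldh9a1 (-0.31) did not pass. Whether NRF2 acted on any of the 10 was not tested.

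**Figure D4:**
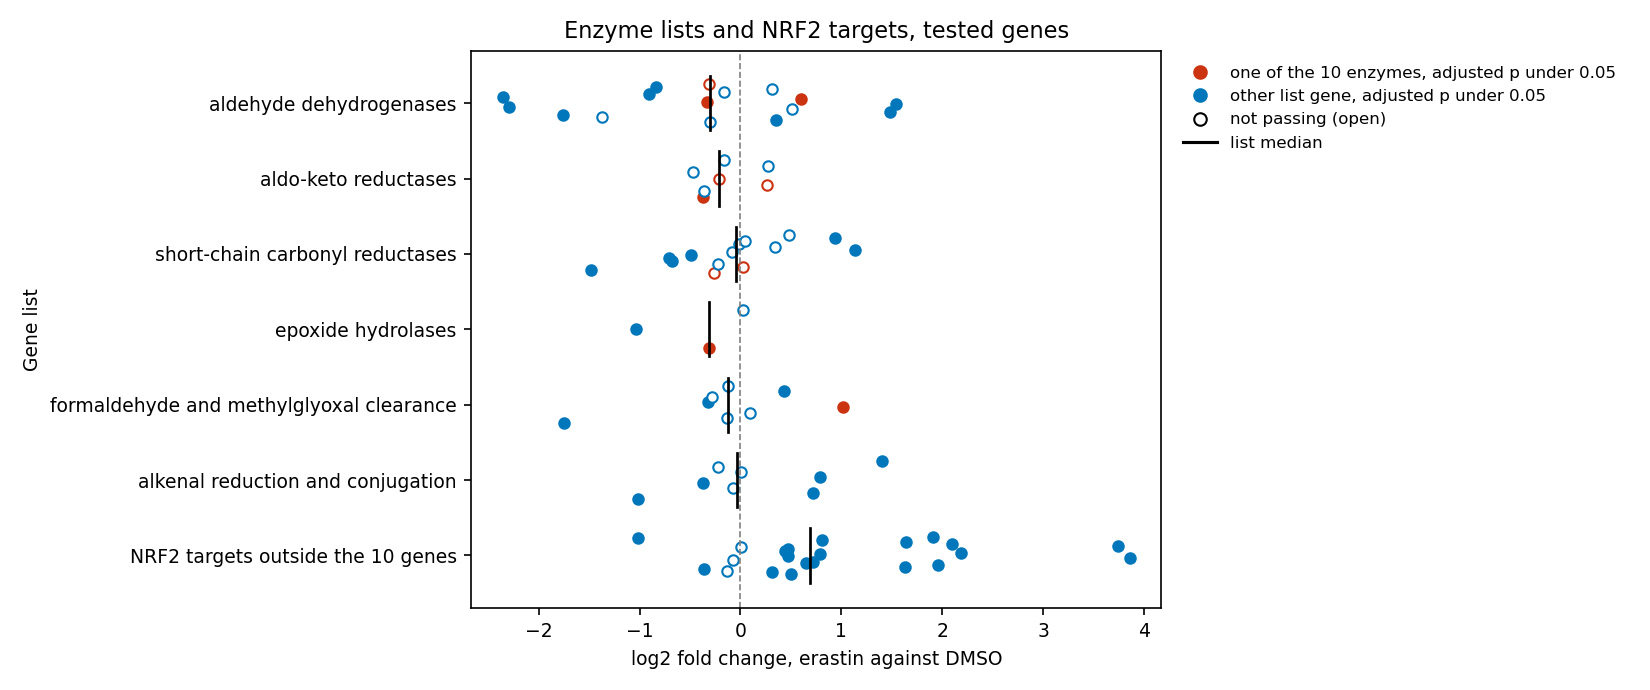
Log2 fold change, erastin against DMSO, of each tested gene in 6 enzyme lists and a list of NRF2 targets; red points are among the 10 genes, blue points are other genes, filled points passed and black bars are list medians. The enzyme lists have medians from -0.31 to -0.031 with genes on both sides of 0, and the NRF2 targets have a median of 0.69. Nqo1, Gsta4, Gstm1 and Ptgr1 are drawn both in the alkenal list and among the NRF2 targets.

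Genes whose expression over the 6 libraries was most like that of Esd, by Pearson's r of log2 CPM among 11260 other genes averaging 50 or more reads, were Extl1 (r = 0.9994), Tspyl4 (r = 0.9993) and Atp8a1 (r = 0.9990). These points share the 2 treatments, so the values mainly describe the difference between groups. Extl1 averaged 1.63 CPM with DMSO and 12.6 CPM with erastin, Tspyl4 14.8 and 36.6 CPM, and Atp8a1 1.77 and 6.29 CPM. Their log2 fold changes of 2.94, 1.31 and 1.83 were larger than the 1.02 of Esd, from lower levels.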

How the data were processed

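RNA was measured in 6 libraries of rRNA-depleted total RNA, sequenced on an Ion Proton instrument per the labels' protocols. The deposited values were taken to be raw read counts per gene. HTSeq 0.9.1, SAMtools and mm10 are named in the submitters' processing notes. The aligner, annotation release and strand setting are not given in the sources used here. Columns were matched to libraries by the sample numbers in the labels, and 0 were left unused. Symbols, positions and lengths came from GENCODE M21 (42462 identifiers matched, 98.0%), and promoters from RefSeq (GRCm38.p6).

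Counts were fitted with edgeR 4.0.16 in R 4.3.3 (filterByExpr with a minimum count of 10 and total of 15, TMM factors, glmQLFit and glmQLFTest, treatment as the only term), with Benjamini-Hochberg adjustment over 14000 genes and a threshold of 0.05. CPM uses the TMM-scaled library sizes; 3 reads, taken as the detection floor, were worth 0.140 to 0.234 CPM. This covers counting error only, since the labels describe PCR and no molecular identifiers. Standard errors came from the fitted weights and posterior dispersion, tested on simulated data. Transcript similarity was read with blastn 2.17.0 from alignments of at least 100 bases, and near-identical copies were those of at least 95% identity over 300 bases.

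The 10 genes and all lists were chosen with earlier results of these data known. Named genes were the 10 and the 2 other genes with the smallest p-values among those passing in each list. The 3 genes closest to the gene with the smallest p-value were named too. Cell type markers, sequence relatives and overlapping genes are named as checks, and those singled out among them were chosen after their values were seen. So were Adh5, Glo1, Aldh1a3, Aldh3b1 and Esd-ps, and the lower genes of the short-chain and NRF2 lists. Genes in both the alkenal and NRF2 lists are named for that overlap. Both groups carry replicate numbers 1 to 3 in their titles.

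Alternatives were RLE, upper-quartile and total-count scaling, no filter and a filter of 1 CPM in 3 libraries, the replicate block, DESeq2 1.42.0, an offset for GC content and transcript length (mgcv 1.9.3) with and without the block, thinning to the smallest library, an adjusted p-value under 0.01, and leaving out each library. Summing near-identical copies and thinning with the block were chosen after the data were seen.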

Additional observations from a re-analysis of the deposited data

How the results depend on the processing

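Of the 10 genes, 5 to 6 passed over the 19 alternatives, 2 to 3 higher and 3 to 4 lower, and Esd, Aldh3a2, Akr1a1, Aldh2 and Ephx1 passed in the same direction in all 18 alternatives run for single genes. The log2 fold change of Esd ran from 0.97 to 1.08, that of Aldh3a2 from 0.53 to 0.75, and those of Akr1a1, Aldh2 and Ephx1 from -0.42 to -0.30, -0.39 to -0.27 and -0.37 to -0.23. With the replicate block 5 genes passed, 2 higher and 3 lower, and the block changed no call among the 10; equally numbered libraries had deviations correlated at 0.040, 0.0038 and -0.0055, so pairing by number was not borne out. With any 1 library left out, 5 to 6 of the 10 passed, Cbr3 ran from -0.13 to 0.19, the median of the NRF2 targets from 0.62 to 0.73 and its count of lower genes from 1 to 2. With upper-quartile scaling Cbr3 was -0.032, the median of the NRF2 targets 0.63 and that of the 6 enzyme lists -0.20, and with total counts only these medians were 0.75 and -0.080; the all-gene median moved from -0.0014 to -0.055 with the first scaling and 0.065 with the second. Hagh did not pass with upper-quartile scaling (log2 fold change 0.37, adjusted p = 0.05966). The causes of the other changes were not tested. The 6 genes with fewer reads had standard errors up to 0.19, and the part of depth and of replicate spread in this was not separated: thinning moved that of Aldh9a1 from 0.173 to 0.178 and that of Akr1b3 from 0.140 to 0.137.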
